A study of Mus musculus with 8 samples.

Results

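The cells described here are those of the RNA class GMP/Neut progenitor B in antibody-tagged single cells (CITE-seq) of mouse bone marrow. They were chosen by the name that the study's authors gave each cell from its RNA alone, and no surface protein entered that naming. The class held 2528 of the 22602 annotated cells. All cells came from C57Bl/6 FlkSwitch mice, which carry a Flk2-Cre transgene and a reporter that switches for good from tdTomato to GFP once the Cre has acted. Bone marrow of Young mice (2 to 3 months) and Old mice (20 to 24 months) was enriched for c-Kit, and live, lineage-negative, c-Kit+ cells were sorted as adjoining CD150- and CD150+ fractions, a selection shared by every group below. The 8 libraries carry 1 tissue, 1 cell type and 1 genotype in their labels, and age was read from the authors' cell table. The lineage antibodies of the sort bound the erythroid Ter119, the myeloid Gr-1 and CD11b, B220 of B cells and CD3, CD4, CD5 and CD8 of T cells, so cells bright for these proteins were removed before the measurement. CD150 and c-Kit (CD117) were stained in the same sort, so their levels were in part set by it.

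Granulocyte-monocyte progenitors (GMPs) are committed bone marrow progenitors that give rise to neutrophils and monocytes. In the classical scheme they descend from multipotent progenitors (MPPs), directly or through common myeloid progenitors (CMPs), and they are separated from CMPs by Fc gamma receptors, which the CD16/32 antibody binds. GMPs keep CD34 and c-Kit (CD117), the receptor for stem cell factor, and lack Sca-1, and they later gain Gr-1 and CD11b as neutrophil precursors mature. CD27 is a receptor of the TNF receptor family carried by many early progenitors, and CD62L is L-selectin, an adhesion molecule of leukocytes and of some progenitors.

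The measured quantity was the antibody-derived tag (ADT) score of 35 surface proteins, a normalized value deposited for each cell. It is the logarithm of 1 plus the count over the geometric mean of the cell, taken a second time in the same way. A score is not a log2 value, so classes are compared by differences of scores, and ratios are given only for the percent of ADT counts that a protein took. The cell table assigns every cell to 1 of 16 cell groups, whose names join 1 of the letters A, B, C and D with 1 of the numbers 1, 2, 3 and 4. Numbers 1 and 2 were Young and 3 and 4 were Old. How these groups relate to animals or libraries is not given, so an SD over cell groups describes spread alone. The class filled the groups unevenly. The Young groups held 173 cells in A1, 162 in B1, 264 in C1 and 337 in D1, and the Old groups held 491 in A3, 464 in B3, 274 in C3 and 324 in D3. Groups numbered 2 held 10, 12, 0 and 3 cells and those numbered 4 held 3, 7, 2 and 2, in the order of the letters. Numbers 1 and 3 thus held 2489 of the cells (98.5%), and the values of A2 and B2, with 10 and 12 cells, rest on the fewest cells of all values used. Letters A and B were closer in score to each other than to C and D. The mean absolute gap over the 35 proteins was 0.0277 between A1 and B1 and 0.0208 between C1 and D1, against 0.0404 between the 2 pairs of letters. In Old cells the corresponding gaps were 0.0222, 0.0242 and 0.0570. In the annotated cells, 52 barcodes occurred under more than 1 letter, 8 cells of the class carried such a barcode, and none was repeated within a letter. How doublets were treated is not described in the sources used here, and all annotated cells were kept.

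A protein is called higher or lower below where its difference had 1 direction in every cell group with at least 10 cells of both classes and its mean over those groups was at least 0.1 score units. For Old against Young the same was asked of the 4 letters. A sign-flip test over 4 letters could not reach a two-sided exact p under 0.05, so none was run. The lists of proteins named below (markers, myeloid maturation, stem cell and MPP, platelet, lymphoid, erythroid, adhesion) were described by counts and medians. Their members were chosen with earlier results of these data known, so list medians are descriptions and no independent evidence.

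All 4 marker antibodies were counted in most GMP/Neut progenitor B cells. No control antibody for background was among those measured, so counts and scores alone do not separate expression from background binding. On the same scale CD79b, a chain of the B cell receptor complex, had a mean score of 1.05 in the class. The mean score of CD16/32 was 0.968 over the cells, and the lowest, median and highest cell group means were 0.943, 0.962 and 1.12. For CD62L the cell mean was 1.32 and the cell groups gave 1.23, 1.31 and 1.49. For CD27 the mean was 1.34 with cell groups at 0.959, 1.31 and 1.40. CD34 was the weakest and most varied marker, with a mean of 0.585 and cell groups at 0.308, 0.595 and 0.686. Groups A2 and B2 were the lowest for CD27 and CD34, and for CD62L they were the lowest and the highest. Zero counts were seen in 4.63% of the cells for CD34 and 0.514% for CD16/32, and in 0 of 2528 cells for CD27 and CD62L. Over the 19 named classes with at least 50 cells, the class ranked 2 from the top for CD16/32, after GMP/Neut progenitor A only, 5 for CD62L, 7 for CD27 and 8 for CD34. CD16/32 and CD62L thus stood near the top of the series, while CD27 and CD34 were in the middle. The highest class was MPP B for CD27 and Lymphoid A for CD34.

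**Figure D1:**
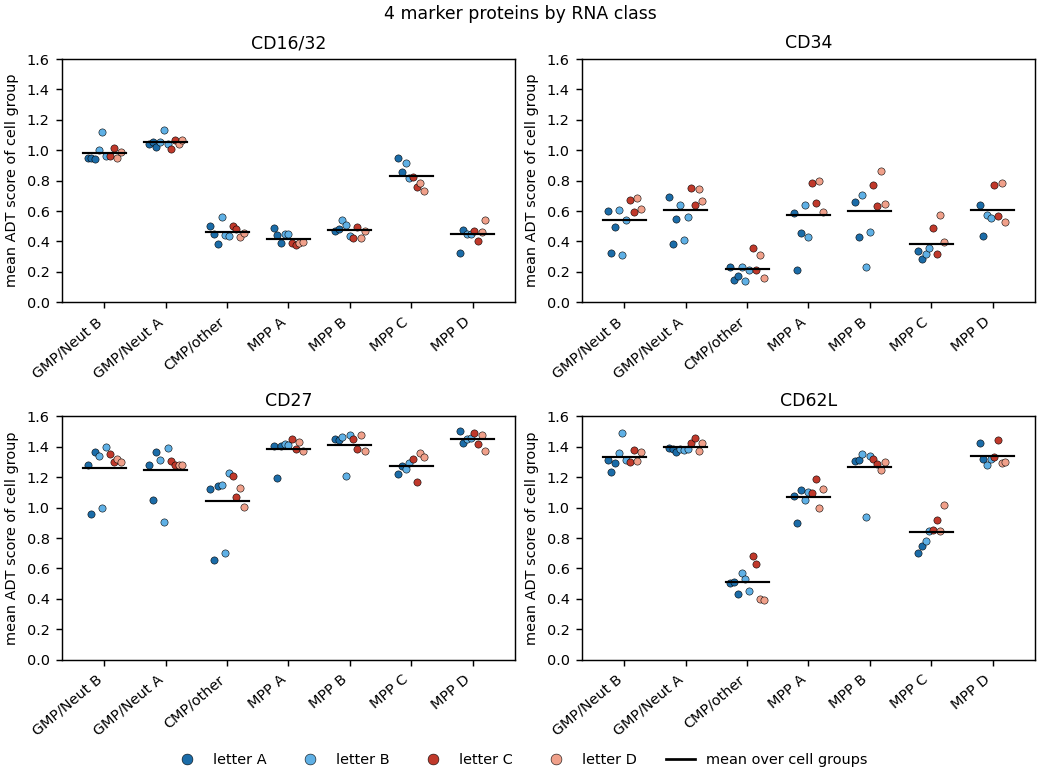
Mean ADT score (y axis, score units) of CD16/32, CD34, CD27 and CD62L in GMP/Neut progenitor B and 6 other RNA classes (x axis), with 1 point for each cell group with at least 10 cells of both classes, coloured by letter, and a line at the mean over cell groups. CD16/32 of the class lies between 0.943 and 1.12, next to GMP/Neut progenitor A and above every cell group of CMP/other, MPP A, MPP B and MPP D, and the low CD27 and CD34 points belong to the cell groups with few cells, A2 and B2.

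The rest of the panel placed most of the antibody signal on a few adhesion and progenitor proteins. CD44, the receptor for hyaluronan, took 43.6% of the ADT counts of the class and CD48, a receptor of the SLAM family, took 18.9%. CD62L, CD27 and CD117 followed with 8.05%, 7.77% and 6.99%. CD117 had a mean score of 1.37, with cell groups from 1.32 to 1.43 and no cell at 0. Its mean over cells at full depth was the lowest of the 19 classes, next to 1.39 in GMP/Neut progenitor A. With cells thinned to 1000 counts that order did not hold, as CD117 was then 0.00507 ± 0.00168 above GMP/Neut progenitor A (SD, n = 8 cell groups). Sca-1, which marks stem cells and early MPPs, had a mean of 0.282 and ranked 18 of 19, and CD150, a stem cell and megakaryocyte protein, had a mean of 0.0674 and ranked 18 of 19. Gr-1 (mean 0.914, SD over cells 0.316) ranked 2 and CD11b (mean 0.122) ranked 3, although CD11b was not counted at all in 46.0% of the cells. TER-119, the erythroid protein, had a mean of 0.0760 against 0.975 in the Ery 4 class. CD3, CD4 and NK-1.1, proteins of T and NK cells, had means of 0.0542, 0.0548 and 0.0275, with 0 counts in 62.3%, 63.3% and 78.5% of the cells. The other lymphoid proteins were not all near 0. CD79b, a chain of the B cell receptor complex, had a mean of 1.05, above the 0.968 of CD16/32, and B220 had 0.314. Both ranked 7 of 19. CD127, CD5 and CD8a had means of 0.182, 0.159 and 0.0798.

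A protein gate for myeloid progenitors, with a Sca-1 score under 0.71 and a CD117 score above 1, held 98.7% (2496 of 2528 cells, exact Clopper-Pearson 95% interval 98.2% to 99.1%) of the class. The share ran from 97.9% in letter A to 99.2% in letter D. Of the cells outside the gate, 29 missed it by Sca-1 and 3 by CD117. The same gate held 99.0% of GMP/Neut progenitor A, 92.4% of CMP/other, 96.5% of MPP C, 62.6% of MPP D, 55.8% of MPP B and 25.3% of MPP A. Intervals on shares cover counting error only. By the authors' call of the reporter, 2.33% (59 of 2528 cells, 95% interval 1.78% to 3.0%) of the class were Egfp negative. Among HSCs it was 72.5%, and among GMP/Neut progenitor A cells it was 2.71%. The share of the class was 0.756% in letters A and B and 4.06% in letters C and D. In Young and Old cells it was 0% and 1.01% in letter A and 0.575% and 0.849% in B. The corresponding shares were 2.27% and 5.43% in C and 1.76% and 6.75% in D. The values of A and B rest on 10 Egfp negative cells.

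The comparison with CMP/other asked which surface proteins set the class apart from the RNA class named for CMPs. GMP/Neut progenitor B carried more of all 4 markers, of the integrin chain CD61 and of 3 myeloid or adhesion proteins, and less of 7 proteins of stem cells, megakaryocytes and early progenitors. Of the 35 proteins, 15 were called (42.9%), 8 higher (22.9%) and 7 lower (20%), over 10 cell groups with 2511 cells of the class and 749 of CMP/other. The split moved with the scale, to 5 higher and 11 lower on log2 of counts per 1000 ADT counts or with each cell thinned to 300 counts, and to 5 higher and 10 lower when centred on the lineage antibodies, with CD11b, CD44 and Gr-1 not called in any of the 3. CD62L differed most. Its cell group means were 1.23 to 1.49 in the class and 0.395 to 0.681 in CMP/other, with no overlap, and the difference was 0.826 ± 0.109 (SD, n = 10 cell groups). It took 9.59% of the ADT counts against 0.651%, a log2 ratio of 3.89 ± 0.48. A cell of the class had the higher CD62L score in 0.991 of all pairs of cells, as a fraction averaged over cell groups. CD16/32, the Fc receptors that define GMPs by flow cytometry, ran from 0.943 to 1.12 against 0.381 to 0.561, again with no overlap, a difference of 0.519 ± 0.0678 and a log2 ratio of percent of 1.94 ± 0.29. In CD34, the sialomucin of early progenitors, the cell groups lay at 0.308 to 0.686 and 0.143 to 0.359 and overlapped, but every within-group difference was positive (0.326 ± 0.0906). Without A2 and B2 it was 0.364 ± 0.0453 (n = 8 cell groups). For CD27 the cell groups also overlapped, at 0.959 to 1.40 and 0.657 to 1.23, and the difference was 0.220 ± 0.0605. The 4 markers had a median difference of 0.422, against -0.00789 over all 35 proteins. They had been chosen for this class beforehand, so this gap is a description only.

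**Figure D2:**
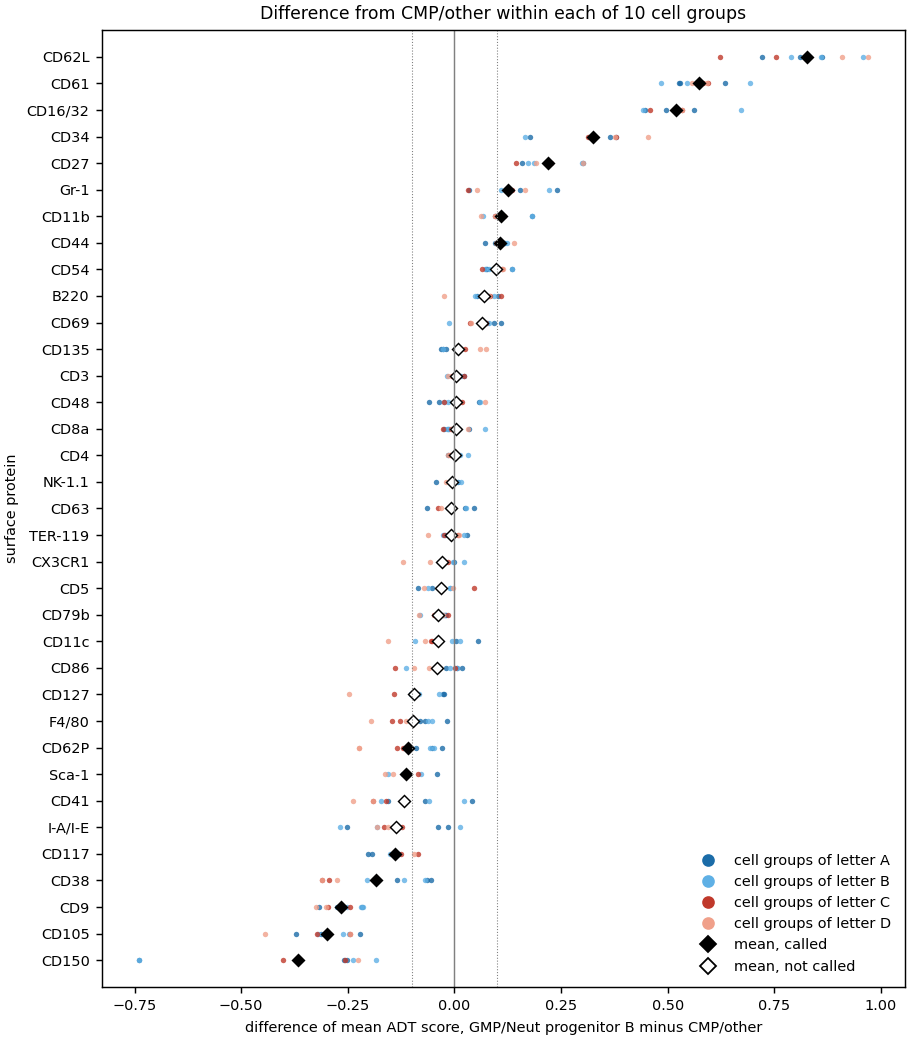
Difference of mean ADT score between GMP/Neut progenitor B and CMP/other (x axis, score units) for 35 surface proteins (y axis), with a dot for each of 10 cell groups, a filled diamond for the mean of a called protein and an open diamond for the others. CD62L, CD61 and CD16/32 stand apart at the top with means of 0.826, 0.574 and 0.519, and CD150 is lowest at -0.366, with 2 cell groups, A2 and B2, far below the other 8.

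Beyond the markers, CD61, the beta chain that pairs with CD41 on platelets and with other integrins on myeloid cells, was 0.574 ± 0.0599 higher, with cell groups at 0.797 to 0.940 against 0.220 to 0.357 and no overlap. Its partner CD41 was not called (-0.118 ± 0.0953, from -0.238 to 0.0404). Of the 7 myeloid maturation proteins 2 were called higher, namely Gr-1 at 0.127 ± 0.0724 and CD11b at 0.110 ± 0.0410, and 5 were not, among them CD11c (-0.0392 ± 0.0598), F4/80 (-0.0968 ± 0.0516) and MHC class II I-A/I-E (-0.137 ± 0.0961). The median of the list was -0.0392. CD44 was 0.107 ± 0.0187 higher, the 1 protein called of the 3 adhesion proteins, whose median was 0.0969. Without A2 and B2 CD11b was at 0.0917 ± 0.0178 and no longer met the call, and Gr-1 was at 0.147 in letters A and B and 0.0960 in letters C and D. The median ADT count of the class was 1.76 ± 0.303 times that of CMP/other within cell groups, and after each cell was thinned to 300 counts the smallest of these calls were not met. At that depth the differences were 0.0434 ± 0.0768 for Gr-1, 0.0514 ± 0.0393 for CD11b and 0.0653 ± 0.0131 for CD44, while CD62L (0.776 ± 0.0850), CD61 (0.427 ± 0.0833), CD16/32 (0.428 ± 0.0684), CD34 (0.195 ± 0.0509) and CD27 (0.169 ± 0.0557) were still called. Conversely, I-A/I-E (-0.183 ± 0.109), CD41 (-0.131 ± 0.0492), CD79b (-0.126 ± 0.0350) and F4/80 (-0.103 ± 0.0396) met the call as lower at 300 counts, each in all 10 groups, although not at full depth.

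The proteins that were lower than in CMP/other came mainly from the list of stem cell and MPP proteins, of which 5 of 7 were called lower, with a median of -0.139. Of these 5, CD150, CD105 and CD117 were called lower against 0 of the 4 MPP classes at full depth, and Sca-1 and CD38 against 3 and 2. The highest of the 19 classes was MKP for CD150 (0.761), Ery 4 for CD105 (1.57) and Early Ery progentior B for CD117 (1.61). CD150 had cell group means of 0.0366 to 0.0840 in the class and 0.265 to 0.824 in CMP/other, with no overlap. Its difference was -0.366 ± 0.207, and without A2 and B2 it was -0.273 ± 0.0730. The CMP/other cells of numbers 2 and 4 had a mean CD150 score of 0.805 and those of numbers 1 and 3 had 0.322, so the size of this difference moved with the numbers compared. CD105, the TGF-beta co-receptor endoglin, was lower by 0.299 ± 0.0695 and CD38, an ectoenzyme that consumes NAD, by 0.184 ± 0.108. CD38 differed by -0.108 in letters A and B and by -0.298 in letters C and D. CD117 was 1.32 to 1.43 against 1.48 to 1.53, with no overlap and a difference of -0.139 ± 0.0368, and Sca-1 differed by -0.113 ± 0.0373. The remaining members of the list were not called, with CD48 at 0.00468 ± 0.0449 and CD135, the receptor that Flk2 encodes, at 0.00727 ± 0.0366. Among the platelet proteins, the tetraspanin CD9 was lower (-0.266 ± 0.0430, 0.605 to 0.928 against 0.881 to 1.22) and so was P-selectin, CD62P (-0.109 ± 0.0698), while the tetraspanin CD63 was at -0.00789 ± 0.0336. Of the 8 lymphoid proteins and the erythroid TER-119, none was called at full depth, with medians of -0.00248 and -0.00794. CD79b was called lower at 300 counts, as given above, and on log2 of counts per 1000, and CD127, the interleukin-7 receptor, was called lower on that scale, on medians and when centred on the lineage antibodies.

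Against the 4 RNA classes named MPP the question was which proteins were higher or lower in the class. Gain or loss along a lineage was not tested. CD61 and Gr-1 were called higher against CMP/other and all 4 MPP classes, and I-A/I-E and CD86 were called lower against all 4 MPP classes. These comparisons share the cells of the class, so they are not independent of one another, and the calls of Gr-1 against CMP/other and MPP C were not met at 300 counts per cell. Relative to MPP A, 10 proteins were called (28.6%), 5 higher and 5 lower (14.3% each). CD16/32 stood at 0.943 to 1.01 in the class and 0.380 to 0.488 in MPP A, with no overlap and a difference of 0.549 ± 0.0520 (SD, n = 9 cell groups). CD61 (0.347 ± 0.0805), CD62L (0.246 ± 0.0577), Gr-1 (0.210 ± 0.0648) and CD48 (0.118 ± 0.0326) were also higher. Sca-1 gave the widest gap of all MPP comparisons, 0.211 to 0.355 against 0.815 to 1.04, a difference of -0.694 ± 0.0811. CD86, a ligand that co-stimulates T cells, was at -0.454 ± 0.0589, I-A/I-E at -0.412 ± 0.152, CD135 at -0.148 ± 0.0504 and the adhesion molecule CD54 (ICAM-1) at -0.109 ± 0.0406. CD34 differed by -0.000756 ± 0.0841, from -0.114 to 0.114 among the cell groups, and was not called. The values of CD27 (-0.0962 ± 0.0622), CD117 (-0.0333 ± 0.0238) and CD11b (0.0577 ± 0.0435) did not meet the call either. With cells thinned to 300 counts CD135 (-0.0740 ± 0.0394) was not called, while CD27 (-0.135 ± 0.0590), CD38 (-0.143 ± 0.0622) and CD105 (-0.121 ± 0.0383) were called lower. CD48 was not called on medians, on log2 counts or centred on the lineage antibodies. The median of the markers was 0.123 against -0.00351 over all proteins.

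MPP B and MPP D are given side by side. Against MPP B 10 were called (28.6%), 3 higher (8.57%) and 7 lower (20%), and against MPP D 10 (28.6%), 4 higher (11.4%) and 6 lower (17.1%). CD16/32 was 0.515 ± 0.0454 higher than in MPP B and 0.524 ± 0.0646 higher than in MPP D, with cell groups at 0.423 to 0.540 in MPP B and 0.324 to 0.541 in MPP D, all below the class. CD61 (0.265 ± 0.0618 and 0.236 ± 0.0830) and Gr-1 (0.213 ± 0.0545 and 0.224 ± 0.0562) followed. CD79b, a chain of the B cell receptor complex, was called against MPP D (0.108 ± 0.0275). In contrast to the comparison with CMP/other, CD27 was lower than in MPP B (-0.120 ± 0.0496) and MPP D (-0.118 ± 0.0554), and it was the 1 protein called in both directions. Sca-1 was at -0.444 ± 0.111 and -0.343 ± 0.0484, I-A/I-E at -0.348 ± 0.136 and -0.318 ± 0.135, and CD86 at -0.294 ± 0.0362 and -0.271 ± 0.0398. CD135 was lower by 0.126 ± 0.0441 and 0.143 ± 0.0689, but at 300 counts it was -0.0605 ± 0.0306 and -0.0732 ± 0.0533 and not called. CD54 was lower in both comparisons (-0.114 ± 0.0321 and -0.112 ± 0.0443) and CD38 against MPP B only (-0.166 ± 0.0555), the value against MPP D being -0.121 ± 0.117. At 300 counts CD54 was not called against MPP D (-0.0949 ± 0.0701) and CD79b was called higher against MPP B (0.104 ± 0.0374). CD79b against MPP D was not called on log2 counts or centred on the lineage antibodies, and CD27 was not called against either class on medians. CD34 (-0.0312 ± 0.0893 and -0.00401 ± 0.0693), CD62L (0.0785 ± 0.182 and -0.0111 ± 0.0631), CD48 (0.0122 ± 0.0270 and -0.0306 ± 0.0227), CD117 (-0.0619 ± 0.0347 and -0.0678 ± 0.0206) and CD11b (0.0781 ± 0.0342 and 0.0752 ± 0.0180) were not called. For CD62L against MPP B, group B2 alone gave 0.551, and the mean of the other 8 groups was 0.0194 ± 0.0458. Marker medians were 0.0236 and -0.00753, against -0.0221 and -0.0175 over all proteins.

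**Figure D3:**
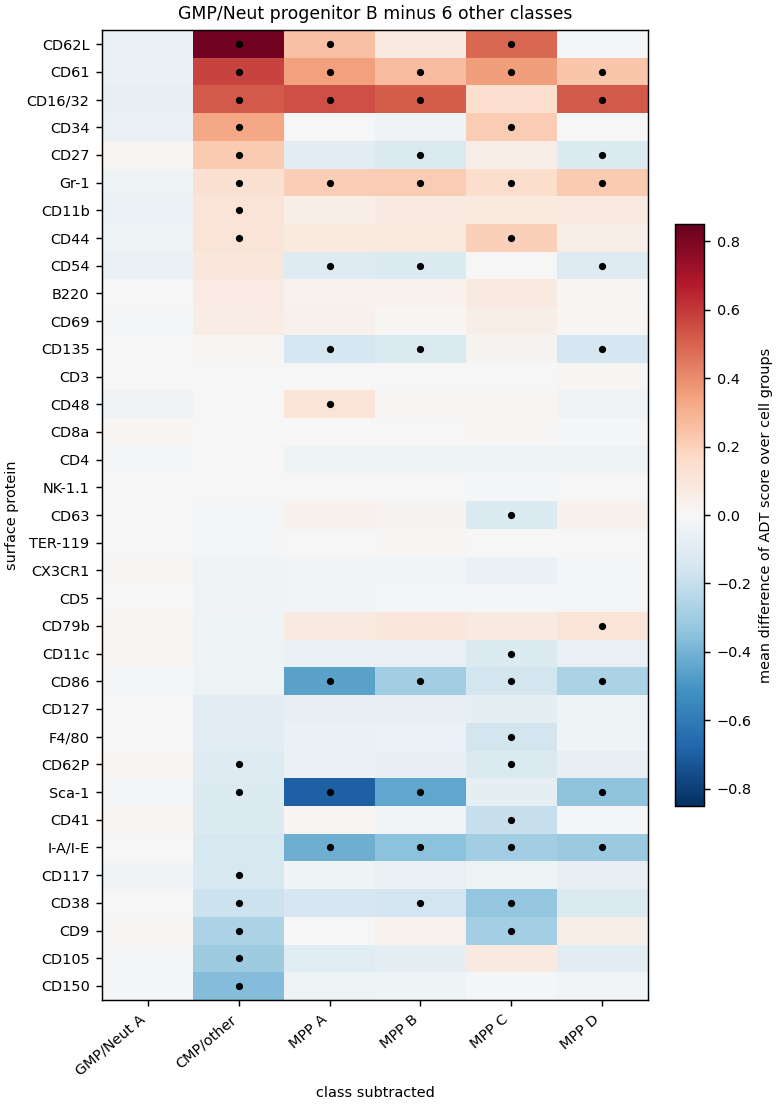
Mean difference of ADT score over cell groups (colour, score units) between GMP/Neut progenitor B and each of 6 RNA classes (columns) for 35 surface proteins (rows), with a dot on each called protein. The column of GMP/Neut progenitor A is pale throughout and holds no dot, CD61 and Gr-1 carry a dot in the other 5 columns, and Sca-1 reaches -0.694 against MPP A.

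MPP C was the MPP class nearest to the GMP classes in CD16/32, with cell groups at 0.733 to 0.951 against 0.943 to 1.01 in the class, and the difference of 0.140 ± 0.0880 was not called because it was -0.00477 in 1 of 8 groups. Instead 14 proteins were called (40%), 5 higher (14.3%) and 9 lower (25.7%). CD62L was higher by 0.489 ± 0.0829 (1.29 to 1.38 against 0.704 to 1.02, no overlap), CD61 by 0.353 ± 0.0438, CD34 by 0.219 ± 0.0597, CD44 by 0.20 ± 0.0245 and Gr-1 by 0.148 ± 0.0437. With cells thinned to 300 counts 4 of the 14 were not called, namely CD34 (0.0907 ± 0.0669), Gr-1 (0.0632 ± 0.0616), CD63 (-0.0992 ± 0.0370) and CD11c (-0.0845 ± 0.0790), while CD54 (-0.114 ± 0.0438) and CD117 (-0.134 ± 0.0256) were called lower. The median ADT count of the class was 1.53 ± 0.139 times that of MPP C. Of the 5 platelet proteins 4 were lower and 1 was higher, the tetraspanin CD9 by 0.289 ± 0.0927, CD41 by 0.199 ± 0.0353, and CD62P and CD63 by lesser amounts (-0.124 ± 0.0311 and -0.117 ± 0.0485). The median of this list was -0.124, against -0.00528 over all proteins. CD38 (-0.328 ± 0.0730), I-A/I-E (-0.297 ± 0.0797), CD86 (-0.159 ± 0.0731), the macrophage protein F4/80 (-0.153 ± 0.0828) and CD11c (-0.116 ± 0.0693) made up the rest of the lower set. CD27 (0.0547 ± 0.0622), Sca-1 (-0.0820 ± 0.0316), CD117 (-0.0419 ± 0.0316), CD48 (0.0158 ± 0.0310) and CD11b (0.0826 ± 0.0259) were not called. MPP C held only 191 cells in these 8 groups and MPP D 253.

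GMP/Neut progenitor A is the other RNA class of the same name, and the comparison asked whether the 2 classes, separated by RNA, also differed in surface protein. No protein was called (0 of 35, 0%), over 10 cell groups with 2511 and 3208 cells. In simulated data a 1.5-fold change of CD62L gave 0.0925 and was not called, so changes of that size can go uncalled. The mean absolute difference over all proteins was 0.0302 score units, against 0.153 for CMP/other and 0.102 to 0.131 for the MPP classes, and the largest value in any cell group (0.0550) was below the smallest of the other comparisons (0.0923). CD16/32 lay at 0.943 to 1.12 in B and 1.01 to 1.13 in A, overlapping ranges with a difference of -0.0705 ± 0.0279 that was negative in all 10 groups. CD34 (-0.0598 ± 0.0250), CD54 (-0.0544 ± 0.0121), CD11b (-0.0504 ± 0.0351), CD44 (-0.0352 ± 0.0116) and CD117 (-0.0268 ± 0.0225) were also below A in all 10 groups. In score at full depth, 6 of 35 proteins (17.1%) thus had 1 direction at a size under 0.1, all lower in B. CD62L (-0.0620 ± 0.0692), CD27 (0.0157 ± 0.0467), Gr-1 (-0.0416 ± 0.0516), Sca-1 (-0.00933 ± 0.0361) and CD48 (-0.0268 ± 0.0113) had both signs among the groups, in CD62L and CD48 because of B2 alone (0.108 and 0.000138). The medians of the marker and myeloid maturation lists were -0.0609 and 0.00299, against -0.00150 over all proteins. In share of ADT counts, CD16/32 took 2.44% of the ADT counts against 2.55% in A (log2 ratio -0.09 ± 0.12), and the log2 ratio was -0.33 ± 0.29 for CD11b. By share, CD41 (log2 ratio from 0.266 to 0.621) and CD62P (from 0.0568 to 0.633) were higher in B in all 10 groups. So were CD135, CX3CR1 and B220, while CD11b and CD44 were lower in all 10.

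The antibody depth of the 2 classes differed, the median ADT count of B being 0.773 ± 0.0806 times that of A and lower in 10 of 10 groups. When every cell was thinned to 1000 counts, CD16/32 differed by -0.0410 ± 0.0188 and CD62L by -0.0507 ± 0.0235, both lower in all 8 groups that kept 10 cells of each class. CD27 (0.0472 ± 0.0174), CD79b (0.0528 ± 0.00871), CD9 (0.0509 ± 0.0201) and I-A/I-E (0.0504 ± 0.0128) were then higher in B in all 8, and CD117 turned from -0.0268 to 0.00507 ± 0.00168. In all, 17 of 35 proteins had 1 direction at this depth and 0 were called. At 300 counts 5 of 35 proteins had 1 direction in all 10 groups. CD9 (0.0611 ± 0.0198), CD79b (0.0640 ± 0.0287), CD62P (0.0360 ± 0.0238) and CD11c (0.0209 ± 0.0187) were higher in B, and CD44 (-0.0171 ± 0.00957) was lower. Among cells with 30000 to 45000 RNA UMIs, CD16/32 differed by -0.00362 ± 0.0397 with both signs among 8 groups, CD62L by -0.0822 ± 0.0336, CD34 by -0.0448 ± 0.0231 and CD54 by -0.0679 ± 0.0177, the last 3 lower in all 8 groups. The sign of CD117 thus differed between depths, and no mean difference reached 0.1 at full depth, at 1000 counts, at 300 counts or within the RNA window.

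RNA depth placed the class between GMP/Neut progenitor A and all other classes compared. The median was 34702 RNA UMIs and 5385 genes per cell, against 48555 UMIs in GMP/Neut progenitor A, 13840 in CMP/other and 13844, 23480.5, 17798 and 20278 in MPP A to D. By cell group the median of the class ran from 30410 to 39327.5, below every group of GMP/Neut progenitor A (43405 to 53429) and above every group of CMP/other (9623 to 15950). Within cell groups the ratio was 0.720 ± 0.0179 to GMP/Neut progenitor A and 2.68 ± 0.401 to CMP/other (n = 10 cell groups each). The classes were defined from RNA, so these RNA depths describe them and were not tested. ADT depth over all cells of each class followed another order, with a median of 2027.5 counts in the class, 2658 in GMP/Neut progenitor A, 2513 in MPP D, 2349 in MPP B, 2095.5 in MPP A, 1331 in MPP C and 679 in CMP/other. In the 8 cell groups with at least 100 cells of the class, CD44 score moved with RNA UMIs (Spearman's rho from 0.255 to 0.454). The score of CD16/32 did so weakly (from 0.127 to 0.229), and that of CD34 had both signs (from -0.0680 to 0.213). These values are a description over cells that share a library.

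**Figure D4:**
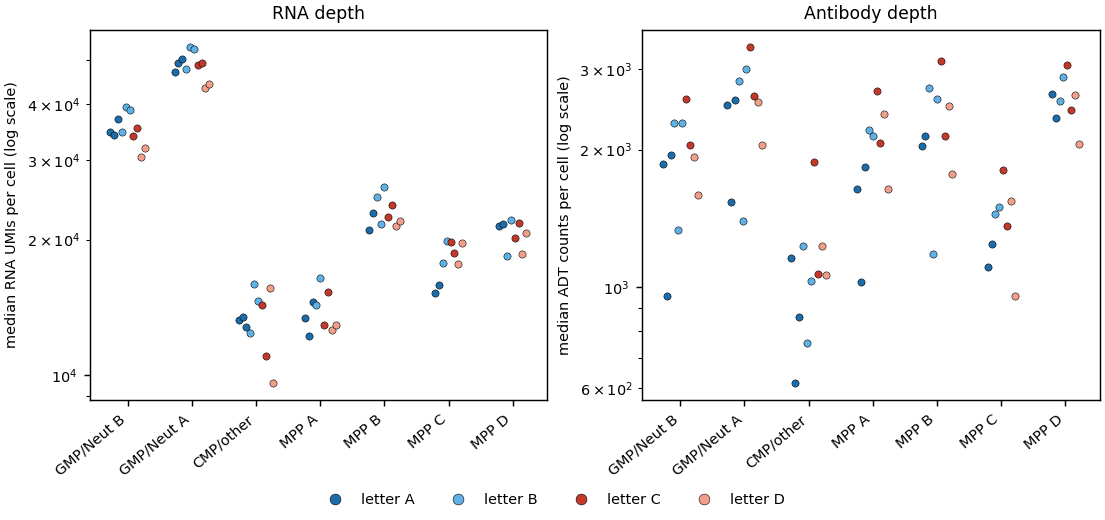
Median RNA UMIs per cell (left) and median ADT counts per cell (right), both on log axes, in GMP/Neut progenitor B and 6 other RNA classes (x axis), with 1 point for each cell group coloured by letter. In RNA the class lies between 30410 and 39327.5, apart from all other classes, whereas its antibody depth overlaps that of the MPP classes and of GMP/Neut progenitor A.

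Cells of the class also varied among themselves. In the 8 cell groups with at least 100 cells, the score SD over cells averaged 0.305 for Gr-1, 0.304 for CD34, 0.293 for I-A/I-E and 0.289 for CD38, the 4 widest, and 0.0839 for CD117. GMP/Neut progenitor A gave 0.312, 0.308, 0.272 and 0.274 for the same 4. Gr-1 and CD27 ran against each other from cell to cell (Spearman's rho median -0.516, from -0.588 to -0.387 over 8 cell groups), and CD117 and CD27 ran together (median 0.540, from 0.455 to 0.657). Gr-1 and CD16/32 also ran together (median 0.434, from 0.250 to 0.496). CD38 moved with I-A/I-E (median 0.624, from 0.581 to 0.708), F4/80 (median 0.615, from 0.237 to 0.752) and CD86 (median 0.502, from 0.180 to 0.672). On counts per 1000 ADT counts the ranges were -0.600 to -0.410 for CD27 and Gr-1, 0.464 to 0.652 for CD117 and CD27, and 0.622 to 0.743 for I-A/I-E and CD38. Of 595 protein pairs, 47 had a median rho of at least 0.3 in size, 23 positive and 24 negative. These are correlations over cells, which share a library, a depth and a common denominator, and they are given as a description.

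Old against Young cells of the class were compared within each letter. As a share of annotated cells the class was larger in Old marrow in all 4 letters. It was 5.14% (183 of 3557 cells, 95% interval 4.44% to 5.92%) in Young and 16.2% (494 of 3041 cells, 95% interval 14.95% to 17.6%) in Old of letter A. Letter B was close to it, with 4.87% and 15.2%. In letters C and D the shares were 11.5% and 11.4% in Young and 15.2% and 14.5% in Old. Old minus Young was thus 11.1, 10.4, 3.70 and 3.06 percentage points. Of the cells in this class, GMP/Neut progenitor A and CMP/other together, the difference was 9.36, 12.0, -0.846 and 3.04 points, with letter C on the other side of 0. Of the 2 GMP/Neut progenitor classes alone, GMP/Neut progenitor B made up 44.8% in Young and 43.2% in Old, pooled over letters. The letters had no common direction, with 47.4%, 45.3%, 43.7% and 44.0% in Young and 43.4%, 42.1%, 41.7% and 46.0% in Old of A, B, C and D. Within the cell groups numbered 1 and 3, which held most of the class, GMP/Neut progenitor B made up 11.1% of the annotated cells in Young and 19.2% in Old, also pooled. These shares count annotated cells and say nothing of the number of such cells in the marrow.

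CD38, CD86 and F4/80 were lower on Old cells of the class, the 3 proteins called of 35 (8.57%), and none was called higher. CD38 had mean scores of 0.550, 0.587, 0.511 and 0.486 in Young cells of letters A, B, C and D and 0.302, 0.312, 0.386 and 0.305 in Old cells, so every Old value lay below every Young value. The difference was -0.207 ± 0.0672 (SD, n = 4 letters), and the mean share of ADT counts was 0.737% in Young and 0.345% in Old. CD86 was at 0.366, 0.386, 0.360 and 0.313 in Young cells of letters A, B, C and D and 0.209, 0.230, 0.227 and 0.217 in Old cells, again without overlap, with a difference of -0.135 ± 0.0286. F4/80, a receptor of macrophages, was at 0.468, 0.455, 0.277 and 0.254 in Young cells of letters A, B, C and D and 0.379, 0.352, 0.174 and 0.129 in Old cells. Letters A and B were higher than C and D at both ages, so the ranges of the ages overlapped, and the differences were -0.0896, -0.103, -0.103 and -0.125 in letters A, B, C and D, with a mean of -0.105 ± 0.0146. After thinning to 1000 counts CD38 (-0.182 ± 0.0799) and CD86 (-0.121 ± 0.0336) were called and F4/80 (-0.0957 ± 0.0133) was not, and after thinning to 300 only CD38 was (-0.136 ± 0.0720). F4/80 was also not called on log2 of counts per 1000 or in the 10th to 90th percentile of ADT depth. Without letter D, I-A/I-E and Gr-1 were called higher and F4/80 was not called, which gave 2 higher and 2 lower. Without letter C, I-A/I-E was called higher beside the 3 lower proteins, and with ages pooled over letters 1 protein was called higher and 2 lower.

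A further 15 proteins had 1 direction in all 4 letters at a size under 0.1, so that 18 of 35 did so in all (51.4%), 10 higher (28.6%) and 8 lower (22.9%) in Old. The 5 largest of these that were not called were I-A/I-E, Gr-1, CD34, CD11c and CD63. I-A/I-E was higher by 0.0896 ± 0.0912, with 0.181, 0.154, 0.0216 and 0.00148 in letters A, B, C and D and thus mainly in A and B. Gr-1 was higher by 0.0841 ± 0.0564, with 0.140, 0.124, 0.0481 and 0.0245 in letters A, B, C and D, again more in A and B. CD11c, an integrin chain of dendritic and myeloid cells, was higher by 0.0738 ± 0.00642 with little spread over letters (0.0684, 0.0780, 0.0806 and 0.0683 in letters A, B, C and D). CD34 was lower by 0.0747 ± 0.0159, with mean scores of 0.584, 0.589, 0.674 and 0.684 in Young cells of letters A, B, C and D and 0.495, 0.535, 0.588 and 0.613 in Old cells. Each Old value of CD34 was below the Young value of its letter, while ranges overlapped over letters. CD63 was lower by 0.0491 ± 0.0149. The other markers had no common direction, CD16/32 at -0.00216, -0.0479, 0.0546 and 0.0416 in letters A, B, C and D, CD62L at -0.0183, -0.0523, 0.0800 and 0.0615 in letters A, B, C and D and CD27 at 0.0939, 0.0811, -0.0547 and -0.0204 in letters A, B, C and D. For CD62L and CD16/32 the letters A and B were on the negative side and C and D on the positive, and for CD27 it was the reverse. CD117 (0.0326 ± 0.0158) and Sca-1 (0.0378 ± 0.0233) were higher and CD48 (-0.0469 ± 0.0371) lower in all 4 letters, and CD11b was at -0.00547 ± 0.0380 with both signs. By list, the 8 lymphoid proteins had 5 members higher in all letters, 0 lower and a median of 0.00892, and the 7 myeloid maturation proteins had 3 higher, 3 lower and a median of -0.00547, against 0.00266 over all 35. The mean absolute gap of these differences was 0.0122 between A and B, 0.0154 between C and D and 0.0416 between the 2 pairs, and 19 of 35 proteins had the same sign in both pairs.

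**Figure D5:**
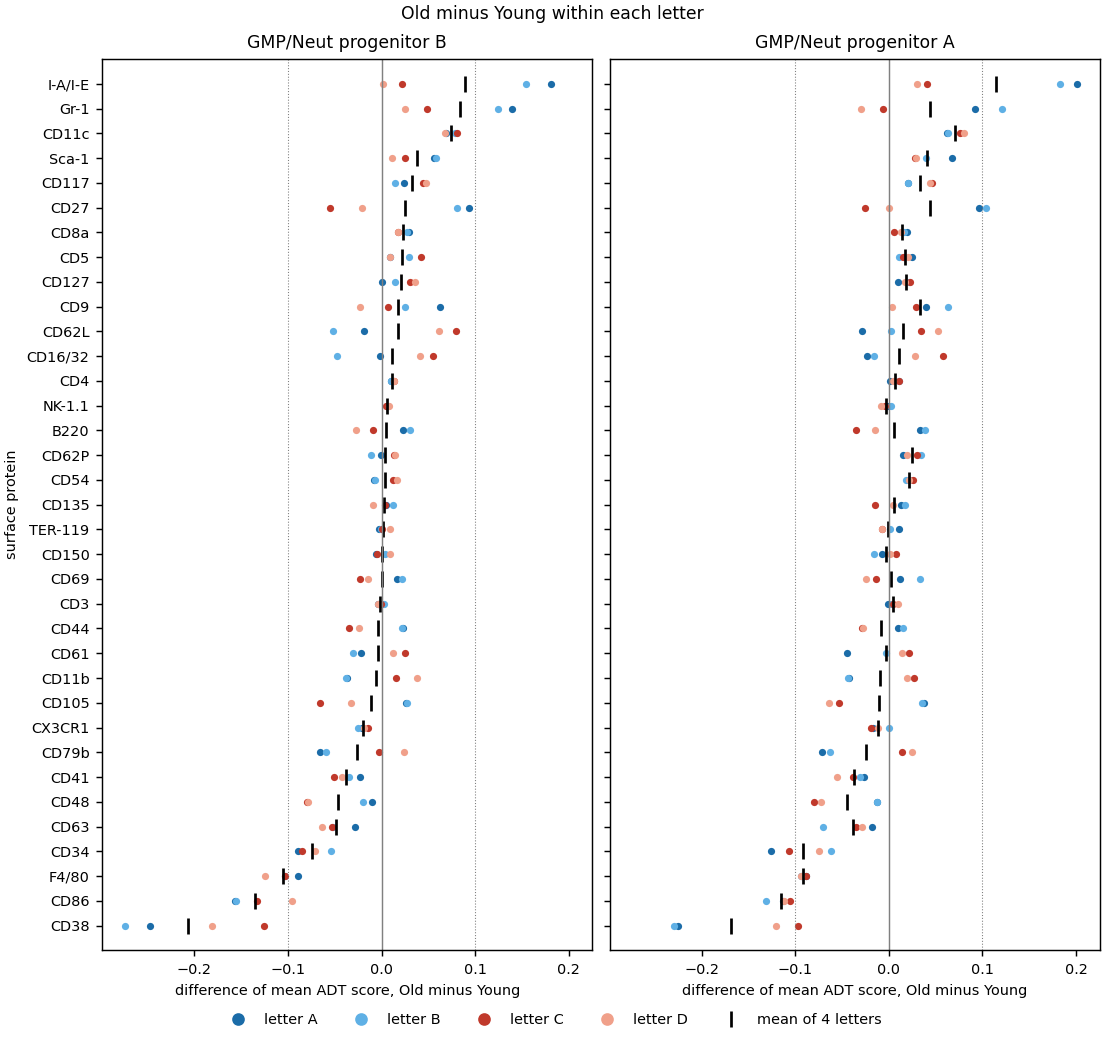
Difference of mean ADT score between Old and Young cells (x axis, score units) for 35 surface proteins (y axis) in GMP/Neut progenitor B (left) and GMP/Neut progenitor A (right), with a dot for each letter and a bar at their mean. CD38 and CD86 are the lowest in both panels, with means of -0.207 and -0.135 in the left panel, followed there by F4/80 at -0.105, and dots of letters A and B lie apart from those of C and D for I-A/I-E, Gr-1 and CD27.

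The age differences of the class were set beside those of the other classes in the same letters. In GMP/Neut progenitor A CD38 differed by -0.168 ± 0.0691, CD86 by -0.116 ± 0.0108 and F4/80 by -0.0913 ± 0.00264, and the difference between the 2 age differences was called for 0 of 35 proteins (0%). For these 3 proteins B minus A was -0.0388 ± 0.0174 for CD38, -0.0197 ± 0.0255 for CD86 and -0.0138 ± 0.0128 for F4/80. CMP/other gave -0.20 ± 0.0601 for CD38 and -0.190 ± 0.0449 for CD86, and the 4 MPP classes gave -0.263 to -0.129 for CD38. In the erythroid classes Ery C and Ery 4, by contrast, CD38 differed by -0.0390 ± 0.0482 and -0.0111 ± 0.0317. Ery C had the lowest mean CD38 score of the 19 classes (0.148). Early Ery progentior B did not share this contrast. The age difference of this class minus that of Early Ery progentior B was -0.00894 ± 0.102 for CD38 and 0.0322 ± 0.0727 for CD86, neither called. The age difference of the class was lower than that of Ery C by 0.168 ± 0.101 for CD38, 0.132 ± 0.0267 for CD86 and 0.112 ± 0.0255 for F4/80, all called, among 5 of 35 proteins called (14.3%). I-A/I-E differed with age by 0.281 ± 0.227 in MPP A and 0.305 ± 0.234 in MPP D, more than in this class, the contrast being -0.191 ± 0.136 with MPP A and -0.215 ± 0.151 with MPP D, each 1 of 2 proteins called of 35 (5.71%). CD34 was lower in Old cells of MPP B by 0.192 ± 0.0354, more than in this class (contrast 0.117 ± 0.0346, again 1 of 2 called, 5.71%). Against CMP/other, MPP C and Early Ery progentior B 1 contrast each was called (2.86%), I-A/I-E at -0.120, F4/80 at 0.113 and Gr-1 at 0.111, respectively. Against Ery 4 it was 6 (17.1%) and against Lymphoid A, B and C 3 (8.57%), 3 (8.57%) and 0 (0%). In depth, the median of the class was 32713 RNA UMIs in Young and 36141 in Old and 2110 against 1977 ADT counts, and its part in the protein differences was not tested beyond the values at fixed depth above.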

How the data were processed

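C-Kit-enriched bone marrow cells of Young and Old FlkSwitch mice were profiled by CITE-seq in 8 libraries. The deposited matrix holds ADT counts of 35 antibodies in 22790 cells, and the authors also deposited a score for each count. The score was reproduced from the counts to within 5e-10, and its formula does not depend on other cells. The deposited cell table gives the RNA class, cell group, reporter call, and RNA and ADT totals of 22602 cells, and the 188 cells found only in the matrix were not used. Cell Ranger and mm10 are named in the submitters' processing notes, and a stated filter of the study was at least 200 genes per cell, with a lowest value of 503 in the table. The study also left out cells that lacked both the CD117 tag and Kit RNA, so CD117 entered the selection of cells to that extent. 1 cell without ADT counts was left out of depth-based values.

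Cells were grouped by class and by cell group, and differences of mean score were taken within cell groups with at least 10 cells of both classes, then averaged with their SD. Old minus Young was taken within the 4 letters. A call required 1 direction in all cell groups or letters and a mean of at least 0.1. Percent of ADT counts was computed from the deposited counts, and log2 ratios of these percents were taken within cell groups. Named proteins were the 4 markers, CD117, Sca-1, CD48, CD11b and Gr-1 in every comparison, every called protein up to 15 against CMP/other and GMP/Neut progenitor A, the 5 largest called in each direction against each MPP class, and with age every called protein and the 5 largest with 1 direction. Proteins outside this rule were named after their values were seen. The members and lists were chosen with earlier results of these data known. Shares carry exact Clopper-Pearson 95% intervals. Thinning drew a fixed number of ADT counts from each cell without replacement (300, or 1000 as a later choice) and left out shallower cells. Alternatives were another minimum of cells (20), medians, log2 of counts per 1000 ADT counts plus 1, centring on the lineage antibodies, the 10th to 90th percentile of ADT depth, thinning, single letters left out, call sizes of 0.05 and 0.2, and no cell group block. The code was tested on simulated data in which 4 of 35 proteins were changed. All 4 had the right direction in every cell group, and 3 were called, as were 0 of the 31 unchanged proteins. The 2 simulated classes were assigned to cells at random and so were given no difference in ADT depth. Errors that come from depth were thus not covered by this test. A 2-fold change of CD16/32 gave 0.194, and a 1.5-fold change of CD62L gave 0.0925, under the call size. Python 3.11.15, numpy 2.4.6, pandas 2.3.3, scipy 1.17.1 and matplotlib 3.10.9 were used.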

Additional observations from a re-analysis of the deposited data

Results flagged for a closer look

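Single cell groups stood apart from the others of their comparison in 9 of 101 sets of cell group values. About 1 in 20 such sets would do so by chance if values were independent and of equal spread. Here the groups used held 10 to 491 cells of the class and the sets shared those cells. That rate is thus no fitting reference for the 9. Of the 9, 8 were cell groups A2 or B2, which held 10 and 12 cells of the class. Against CMP/other, the CD16/32 difference was 0.673 in B2 and 0.442 to 0.562 in the other groups. Against GMP/Neut progenitor A, CD117 differed by -0.0874 in A2 and by -0.0380 to -0.00984 elsewhere, CD27 by -0.0918 in A2 and -0.00216 to 0.0926 elsewhere, and CD62L by 0.108 in B2 and -0.155 to -0.0254 elsewhere. Against MPP A, CD27 differed by -0.235 in A2 and by -0.122 to -0.0131 elsewhere. Against MPP B, group B2 gave 0.0777 for CD48 (others -0.0166 to 0.0255), 0.551 for CD62L (others -0.0269 to 0.0946) and -0.698 for Sca-1 (others -0.516 to -0.343). The 1 such value from a larger cell group was I-A/I-E against MPP C, at -0.480 in C3 and -0.310 to -0.218 elsewhere.

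For 2 proteins the Old minus Young difference was positive in all 4 letters of GMP/Neut progenitor B and negative in all 4 letters of another class. Gr-1 differed by 0.0841 in the class and by -0.0274 in the class labelled Early Ery progentior B, and Sca-1 by 0.0378 in the class and by -0.0310 in MPP B. These opposite directions were not tested.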

How the results depend on the processing

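No called direction was reversed in the results recomputed here, while CD117 against GMP/Neut progenitor A, which was not called, changed sign at 1000 counts. No paired analysis was possible because no replicate number of a library can be joined to the cell groups, so the cell group or the letter served as the only block. At 300 ADT counts per cell, CD16/32 minus CMP/other was 0.428 and CD34 was 0.195. Without the cell group block CD34 was 0.426 and CD27 was 0.531. At a call size of 0.2 the number of proteins called was 8 against CMP/other and 6 each against MPP B, MPP C and MPP D, and 1 with age. At 0.05 it was 4 against GMP/Neut progenitor A, 17 against MPP B and 7 with age. Thinning to 300 left 1 protein called with age. CD34, Old minus Young, was -0.0992 on medians, -0.0922 centred on the lineage antibodies, -0.0495 at 300 counts and -0.0967 without the block. RNA depth against GMP/Neut progenitor A was 0.692 on means over cells. Leaving out letters gave 14 to 18 proteins called against CMP/other, 0 against GMP/Neut progenitor A, 9 to 12 against MPP A, 10 to 11 against MPP B, 14 to 15 against MPP C, 10 to 11 against MPP D and 3 to 4 with age (0 higher and 3 lower without A or B, 1 and 3 without C, 2 and 2 without D). Chosen after seeing the data were letters A and B or C and D alone, cell groups numbered 1 and 3 alone, 1000 counts per cell and a window of RNA UMIs. As the link of cell groups to animals is not stated, spread over cell groups is no estimate of spread over mice. Differences of CD150 and CD34 against CMP/other moved with A2 and B2, where the class held few cells and CMP/other 252 and 302. For CD150 the class stayed at 0.0366 to 0.0840, while CMP/other was at 0.805 in numbers 2 and 4 and 0.322 in numbers 1 and 3. For CD34 the class scores of A2 and B2 were the lowest, at 0.323 and 0.308. Scores near 0 (CD3, CD4, NK-1.1) rest on few counts per cell.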
